A study of Mus musculus with 15 samples.

Results

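The DNA replication and G1/S module is a set of 35 mouse genes that copy the genome or control entry into S phase, chosen by name and matched by symbol to Ensembl gene IDs. All 35 matched 1 ID each among the 49315 IDs counted, and all 35 had enough reads to be tested in each edgeR fit. RNA was measured in primary myoblasts, the muscle precursor cells that divide and later fuse into fibres, from the muscle of C57BL/6J mice of wild-type genotype. Cells were treated with siRNAiMax, a lipid reagent that carries small interfering RNA into cells, and with a control RNA (siCtrl), an RNA against Lmod1 (siLmod1) or an RNA against Sirt1 (siSirt1), and all groups were then differentiated for 1 day. Lmod1 makes leiomodin 1, which starts actin filaments, and Sirt1 makes a deacetylase that needs NAD. Each group had 5 libraries, numbered 1, 2, 3, 4 and 7, and the study's text names 5 primary lines. A number is taken here to mark the same line in every group, which the labels do not state. On that reading, p-values speak for these 5 lines and for 1 transfection per group and line. The labels used here name neither the age and sex of the mice nor the number of animals behind a line. The study sought early transcriptional changes that could bear on the effect of knocking down both genes together.

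A cell that is to divide loads the MCM helicase onto origins with Cdc6 and Cdt1. Cyclin E with its kinase helps to release E2F transcription factors from the retinoblastoma protein. E2F factors switch on many of the genes described here, among them the helicase subunits, polymerases and the enzymes that make deoxynucleotides. Myoblasts leave the cell cycle as they differentiate, and most of these genes are known to be turned down on the way.

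The libraries held 21004908 to 33601761 counted reads. Lmod1 counted 5.77 to 41 CPM (counts scaled to the library total) in siCtrl and 1.39 to 5.28 CPM in siLmod1, and Sirt1 counted 16.5 to 34.2 CPM in siCtrl and 3.37 to 11.4 CPM in siSirt1, with no overlap in either case. Each gene also differed at the median in the other knockdown, with ranges that overlapped siCtrl. Lmod1 had a median of 15.9 CPM in siSirt1 against 35.5 CPM in siCtrl, and Sirt1 of 37.1 CPM in siLmod1 against 26.4 CPM in siCtrl. Markers of myoblasts (8 genes) and of differentiating myocytes (7 genes) were counted in every library, the latter at 7982 to 14177 CPM in line 4 and 23164 to 41129 CPM in the other lines. Of the endothelial list, Tek reached 96.2 CPM in line 4 against at most 1.04 CPM elsewhere, while Pecam1 and Cdh5 stayed at or under 1.89 CPM in all libraries. The fibroblast list summed to 4.54 to 52.7 CPM, with Col1a2 at 69 to 1119 reads and Lum at 0 or 1 read. The immune list summed to 1.22 to 7.53 CPM, with Ptprc at no more than 2 reads, Cd68 at 24 to 71 reads and Csf1r at up to 5.9 CPM in line 4 against at most 0.345 CPM elsewhere. Smooth muscle and pericyte markers summed to 58.9 to 291 CPM and Schwann and glial markers to 4.69 to 10.2 CPM, while the 3 adipocyte markers were at 3 reads or fewer in every library. The siSirt1 library of line 1 stood apart: its deviations correlated at 0.28 and 0.30 with the other libraries of line 1 and at 0.27 and 0.21 with those of line 3, so its pairing is uncertain. Blocked values of the Sirt1 comparisons are therefore also given without line 1 for the members and other genes that lead those accounts. These are bulk RNA measurements, in which fewer cycling cells and less RNA per cycling cell cannot be told apart.

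Levels are compared between genes in TPM (transcript levels scaled for gene length and library size). Rrm2, the small subunit of ribonucleotide reductase, had the highest mean level in siCtrl, at 110.4 ± 61.7 TPM (SD, n = 5). Rrm1, the large subunit of the same enzyme, followed at 51.8 ± 18.1 TPM and Pcna, the sliding clamp of the polymerases, at 49.3 ± 13.4 TPM; the SDs of these 3 overlapped, although Rrm2 was above both others in 5 of 5 siCtrl lines. E2f2 (26.5 ± 15.2 TPM), Mcm7 (24.5 ± 7.41 TPM), Mcm2 (20.9 ± 7.68 TPM), E2f1 (20.6 ± 4.89 TPM) and Mcm6 (20.1 ± 10.5 TPM) came next, with SDs over lines that overlapped. At the low end were Cdc6, which helps load the helicase, at 1.5 ± 0.91 TPM, and Exo1, an exonuclease used in repair and at Okazaki fragments, at 0.99 ± 0.68 TPM. Single libraries held between 16 and 10807 reads of a member, and 8 of the 35 genes fell under 50 reads in some library.

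At the median, more of the spread in these genes lay between lines than between siRNA groups. Over the 15 libraries a median of 55.9% of a member's sum of squares (on log2 CPM) lay between lines, 7.78% between siRNA groups and 31.8% in the rest. Over all 15716 genes the medians were 58.5%, 14.7% and 18.2%. These shares were not adjusted for there being more lines than groups. The group share was above the line share for Slbp (53.9% against 32.4%) and E2f1 (23.8% against 17.2%). The rest was above the line share for several members, such as Fen1 (61.6% against 30.6%) and Chaf1a (61.4% against 24.6%). With group as a covariate, edgeR's quasi-likelihood test called a line effect for 23 of the 35 members, against 62.3% of all genes, so the share of members is near the background. The number was 12 without line 3 (54.4% of all genes), 15 without line 7 (53.6% of all genes) and 29 without line 1 (60.9% of all genes). With the siCtrl libraries left out it was 8 (30.6% of all genes).

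Line 7 had the highest mean of 23 members, line 4 of 9 and line 1 of 3, while line 3 had the lowest mean of 28 members. Brca1, which protects and repairs stalled forks, had 83.9% of its spread between lines, and in siCtrl it stood at 2.5, 1.9, 1.18, 7.28 and 3.96 TPM in lines 1, 2, 3, 4 and 7. Line 4 was thus above the rest for Brca1. Rrm2 (84.2% between lines) was highest in line 1, at 205 TPM in siCtrl, and lowest in line 3, at 47.7 TPM. E2f2, an activating E2F factor, took a different order, with 6.82 TPM in line 4 and 46.3 TPM in line 7 of siCtrl. Mitotic transcripts (20 genes) also varied by library, from 85.8 to 676 CPM in sum. The part of line 4's other markers in these line differences was not tested.

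**Figure D1:**
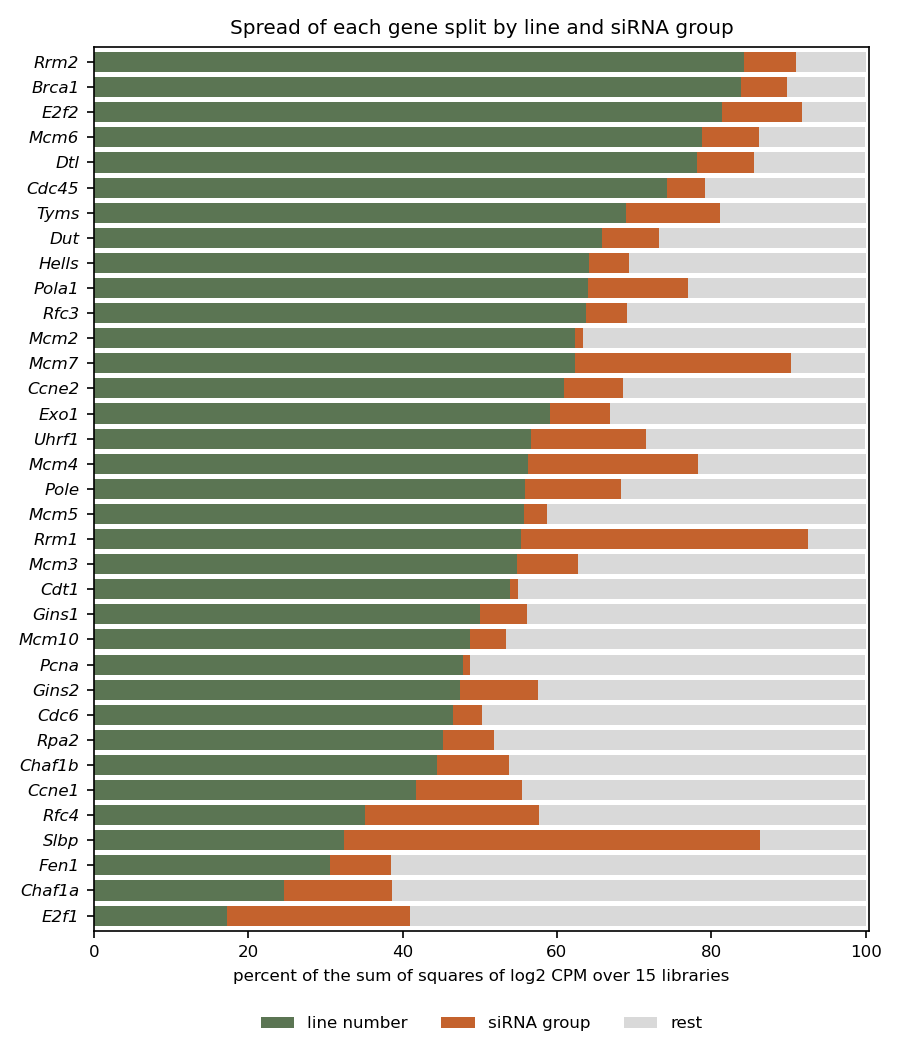
Horizontal bars split the spread of each of the 35 genes over 15 libraries (percent of the sum of squares of log2 CPM, x axis) into line number, siRNA group and the rest, ordered by the line share. Rrm2 (84.2%), Brca1 (83.9%) and E2f2 (81.4%) have the largest line shares, and Slbp has the longest group segment, 53.9%.

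The first comparison set Lmod1 knockdown against control RNA. When libraries were compared by group alone with edgeR's quasi-likelihood test, 0 of 35 members had a Benjamini-Hochberg adjusted p under 0.05, against 0.113% of all genes; 0 had an unadjusted p under 0.05 (8.99% of all genes did), and DESeq2 also called 0. With the line as a block, which compares libraries within a line, 8 members were called, against 29.5% of all genes. Of these, 2 rose (12.9% of all genes did) and 6 fell (16.5% of all genes did). The median member changed by -0.31 on the log2 scale and 30 of 35 were negative, while the median of all genes was -0.01 and 51.5% of them were negative. In 1 blocked fit over all 15 libraries, 0 members were called, 9.08% of all genes were, and the median member was at -0.30. Blocked DESeq2 called 8 members (28.8% of all genes), the same genes as blocked edgeR but with Pole, lower, in place of Exo1.

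Among the enzymes of nucleotide supply, Rrm1 stood at 66, 55.3, 34.8, 31.2 and 71.5 TPM in siCtrl (lines 1, 2, 3, 4 and 7) and at 96.1, 75.5, 47.5, 42.7 and 111 TPM in siLmod1. Every line was higher in siLmod1 than in siCtrl, by 0.36 to 0.64 on the log2 scale, although the ranges of the groups overlapped. Rrm1 rose with a log2 fold change of 0.46 (SE 0.05, edgeR blocked adjusted p = 0.00023), and it was called with each of the 5 lines left out. Its partner Rrm2 did not pass (log2 fold change -0.16, SE 0.09, edgeR blocked adjusted p = 0.23). The ratio of Rrm1 to Rrm2 in TPM was 0.32, 0.86, 0.73, 0.28 and 0.57 in siCtrl and 0.55, 1.08, 0.83, 0.47 and 1.21 in siLmod1, higher in 5 of 5 lines. Tyms, which makes thymidylate, and Dut, which clears dUTP, had log2 fold changes of -0.32 and -0.31 and were not called.

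Of the 8 origin licensing genes, all had negative log2 fold changes and 3 fell, all subunits of the MCM helicase. Mcm6 stood at 23.6, 11.2, 7.49, 33 and 25.3 TPM in siCtrl and at 18.4, 8.48, 6.04, 23 and 12.5 TPM in siLmod1. It was lower in 5 of 5 lines, most in line 7, while the ranges of the groups overlapped. Its log2 fold change was -0.58 (SE 0.10, edgeR blocked adjusted p = 0.0018). Mcm7 went from 29, 21, 16.9, 20.4 and 35.1 TPM in siCtrl to 20.9, 20.1, 15.1, 19.1 and 24.4 TPM in siLmod1, lower in each line, with a log2 fold change of -0.31 (SE 0.07, edgeR blocked adjusted p = 0.01). Mcm3 fell by 0.45 on the log2 scale (SE 0.11, edgeR blocked adjusted p = 0.013), also in 5 of 5 lines. The calls of Mcm6 and Mcm3 were made with each line left out, and that of Mcm7 was lost without line 1 (edgeR adjusted p = 0.06). Reads of Mcm7 may include some of Ap4m1 and Cops6, whose exons overlap 7.25% and 1.45% of its exonic bases, since the library kit named in the labels does not mark strand. The same limit holds for Chaf1a (52.5% shared with Ubxn6), Ccne2 (17.4%, Ints8), Rfc4 (12.7%, Eif4a2), Cdc45 (5.96%, Ufd1) and Fen1 (5.37%, Tmem258). The neighbours of Mcm7 had median levels of 13.4 TPM (Ap4m1) and 153 TPM (Cops6). Median levels of the other neighbours were 32.7, 32.1, 207, 50.6 and 71.9 TPM in the same order, so values of all these members, Mcm7 included, are uncertain.

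The other licensing genes did not pass. Mcm2 stood at 25.7, 20.5, 19.9, 9.11 and 29.4 TPM in siCtrl and at 23.6, 20.8, 21.7, 11.8 and 18.6 TPM in siLmod1, near level in line 2, higher in lines 3 and 4 and lower in lines 1 and 7, with a log2 fold change of -0.10 (SE 0.11). Mcm5 had a log2 fold change of -0.34 (SE 0.13, edgeR blocked adjusted p = 0.079) and Mcm4 of -0.17 (SE 0.08). Cdc6 was lower in lines 1, 2 and 7 and higher in lines 3 and 4, from 2.5, 1.71, 0.40, 0.71 and 2.17 TPM in siCtrl to 1.82, 0.9, 0.49, 0.98 and 0.84 TPM in siLmod1. Cdt1, its loading partner, had a log2 fold change of -0.19. None of the 4 origin firing genes, Mcm10, Gins1, Gins2 and Cdc45, was called; Gins2 came closest (log2 fold change -0.55, SE 0.19, edgeR blocked adjusted p = 0.051), but 67.3% of its exonic bases are shared with Gse1 and its reads are uncertain.

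Among the G1/S regulators, E2f1, an activating E2F factor, stood at 28.2, 19.2, 21, 14.7 and 20 TPM in siCtrl and at 37.7, 26.1, 30.1, 18 and 18.3 TPM in siLmod1. It was higher in lines 1, 2, 3 and 4 and lower in line 7. Its log2 fold change was 0.27 (SE 0.09, edgeR blocked adjusted p = 0.048), and the call was lost without line 1, 2 or 3 (edgeR adjusted p up to 0.17). E2f2 lay at 0.01 on the same scale. Brca1 fell by 0.56 on the log2 scale (SE 0.18, edgeR blocked adjusted p = 0.04), but was called in 1 of the 5 fits that left out a line. Cyclin E1 (Ccne1) stood at 22.2, 15.4, 15.3, 15.1 and 21.9 TPM in siCtrl and at 21.3, 17.2, 13.7, 12.3 and 21.4 TPM in siLmod1, a log2 fold change of -0.12 (SE 0.08) that did not pass. Cyclin E2 (Ccne2) did not pass either, at -0.19 (SE 0.12). These values do not show that the groups were alike for either cyclin.

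At the fork, Pcna stood at 68.9, 39.9, 38.5, 41.4 and 57.6 TPM in siCtrl and at 64, 46, 39.1, 45.2 and 53.2 TPM in siLmod1, with a log2 fold change of -0.02 (SE 0.06). Of the 8 fork genes edgeR called only Exo1, at -0.75 (SE 0.25, edgeR blocked adjusted p = 0.048). The call was lost without line 1, 2 or 7, and the gene had as few as 16 reads in a library. Blocked DESeq2 did not call Exo1 (DESeq2 adjusted p = 0.065) but called Pole (-0.46, DESeq2 adjusted p = 0.043). Rfc3, Rfc4, Fen1, Pola1, Pole and Rpa2 load the clamp, trim flaps, start and extend strands and coat single-stranded DNA. Their log2 fold changes in the edgeR blocked fit ranged from -0.48 to 0.10, and edgeR called none of them. Behind the fork, Uhrf1, which brings the maintenance DNA methyltransferase to newly copied DNA, stood at 15.2, 11.9, 4.25, 4.44 and 26.2 TPM in siCtrl and at 8.67, 7.16, 2.24, 4.4 and 8.64 TPM in siLmod1. The drop was large in lines 1, 2, 3 and 7 and near 0 in line 4. Uhrf1 fell by 0.89 on the log2 scale (SE 0.17, edgeR blocked adjusted p = 0.0033) and was called with each line left out. Slbp, which binds the stem-loop of histone mRNAs, lay at -0.03 (SE 0.07), and Chaf1a, Chaf1b and Hells had values of -0.39, -0.59 and -0.51 that did not pass.

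**Figure D2:**
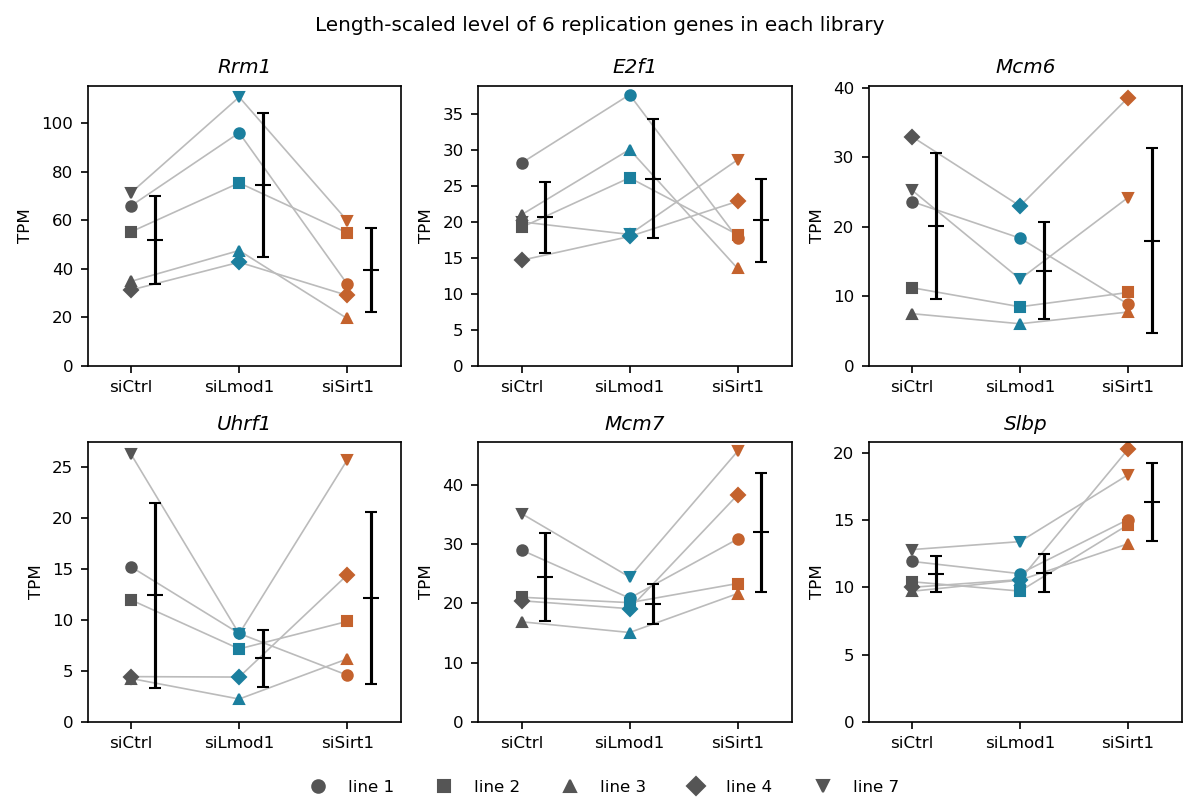
Each panel plots the level of 1 gene in TPM (y axis, from 0) in the 5 libraries of each group (x axis); symbols mark lines, grey lines join libraries of 1 line, and black bars give the mean ± SD (n = 5). Rrm1 rises from siCtrl to siLmod1 in every line and is lower in every siSirt1 library of the same line, Mcm6 is lower in every siLmod1 library of the same line, and Slbp is higher in every siSirt1 library than in its siCtrl partner.

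Promoter sequence was set beside these directions for the genes the comparisons turn on. RefSeq windows (GRCm38.p6, 250 bases before to 50 bases after a start) were found for 29 of the 35 members, in 33 windows. For E2F, 4 words were searched on both strands, and they may overlap: TTGGCGC was the first, TTCGCGC was the next, TTCCCGC was the third and TTGCCGC was the last. At least 1 was found in 66.7% of the member windows and in 9.57% of all 32851 windows. The word CCAAT, on both strands, was in 66.7% of member windows and 37.4% of all windows, and TTTGAA, the core of the cell cycle homology region, in 12.1% and 17.9%. The 250 bases before the start are shown for the gene that rose most firmly (Rrm1), for a pair that fell (Mcm6 and Uhrf1) and for Slbp, which differed between the knockdowns; capitals mark E2F words on either strand, and all else is in lower case.
Rrm1, chr7:102441445-102441694, plus strand: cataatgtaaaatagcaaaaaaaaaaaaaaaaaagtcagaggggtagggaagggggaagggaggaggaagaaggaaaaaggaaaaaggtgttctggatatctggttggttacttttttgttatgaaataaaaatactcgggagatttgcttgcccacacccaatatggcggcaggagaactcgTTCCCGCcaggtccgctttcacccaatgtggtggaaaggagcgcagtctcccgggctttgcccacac
Mcm6, chr1:128359706-128359955, minus strand: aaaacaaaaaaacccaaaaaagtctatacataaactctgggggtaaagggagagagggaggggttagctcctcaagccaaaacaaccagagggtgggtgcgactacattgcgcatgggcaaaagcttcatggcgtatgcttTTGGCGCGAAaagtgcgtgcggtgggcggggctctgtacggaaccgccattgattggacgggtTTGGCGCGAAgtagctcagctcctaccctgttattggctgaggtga
Uhrf1, chr17:56303087-56303336, plus strand: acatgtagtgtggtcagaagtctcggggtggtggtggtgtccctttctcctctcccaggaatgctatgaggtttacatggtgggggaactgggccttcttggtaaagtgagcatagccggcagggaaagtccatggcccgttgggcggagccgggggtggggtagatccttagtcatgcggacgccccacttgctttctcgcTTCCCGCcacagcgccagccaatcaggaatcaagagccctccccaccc
Slbp, chr5:33652575-33652824, minus strand: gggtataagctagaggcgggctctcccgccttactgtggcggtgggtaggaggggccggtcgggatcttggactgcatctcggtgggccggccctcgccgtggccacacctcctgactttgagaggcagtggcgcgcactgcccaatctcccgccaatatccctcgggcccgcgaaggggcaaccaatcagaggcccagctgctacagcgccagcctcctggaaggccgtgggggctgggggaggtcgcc
Rrm1 and Uhrf1 each held 1 E2F word in this stretch and Mcm6 held 4, in 2 overlapping pairs, while none of the 4 words was in the Slbp stretch. In the full windows Mcm6 held 5, and another Uhrf1 window (chr17:56304063-56304362, plus strand) held 1 further word. A match describes letters only and shows no binding.

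The second comparison set Sirt1 knockdown against control RNA. By group alone, edgeR's quasi-likelihood test called 0 of 35 members (0.127% of all genes), with 1 at an unadjusted p under 0.05 (9.66% of all genes), and DESeq2 called 0. With the line as a block, edgeR called 0 members against 7.07% of all genes, and 6 had an unadjusted p under 0.05 against 25.2% of all genes. The blocked DESeq2 fit called 4: Slbp was higher (5.44% of all genes were called higher) and Rrm1, E2f2 and Rrm2 were lower (8.71% were called lower). A blocked edgeR fit over all 15 libraries called 2, against 16.1% of all genes, namely Slbp (log2 fold change 0.43, edgeR adjusted p = 0.011) and Rrm1 (-0.55, edgeR adjusted p = 0.022). Without line 1 the blocked edgeR fit called 0 members (2.2% of all genes). In that fit 8 members had an unadjusted p under 0.05, but the share of all genes at that threshold was not computed, so no excess can be read from it. The median member was at -0.07 on the log2 scale, beside 0.01 for all genes, and 20 of 35 members were negative. Without line 1 the median was 0.19 and 8 of 35 were negative. By group alone the median member was at -0.06, beside 0.02 for all genes. Without the TMM scaling, also by group alone, the median member was at 0.06, but the median of all genes then moved to 0.13, so the members stayed below that shift.

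The lines did not share a direction in this comparison. In line 1, 34 of 35 members were lower in siSirt1, with a median of -1.09 on the log2 scale. In line 2, 29 were lower but the median was only -0.10. In lines 3 and 4, 27 and 30 members were higher, with medians of 0.40 in each, and in line 7, 23 were higher with a median of 0.11. Cdc6 spans this range: it stood at 0.54, 0.82, 0.6, 2.56 and 2.76 TPM in siSirt1 beside 2.5, 1.71, 0.40, 0.71 and 2.17 TPM in siCtrl. Mcm5 went from 15.8, 7.43, 3.3, 7 and 14 TPM in siCtrl to 4.24, 7.36, 5.99, 10.8 and 19.6 TPM in siSirt1, lower in line 1 and higher in lines 3, 4 and 7. The Lmod1 comparison, which shares the siCtrl libraries, had medians of -0.17, -0.21, 0.02, -0.10 and -0.69 in lines 1, 2, 3, 4 and 7, with 29, 28, 17, 20 and 31 members lower.

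**Figure D3:**
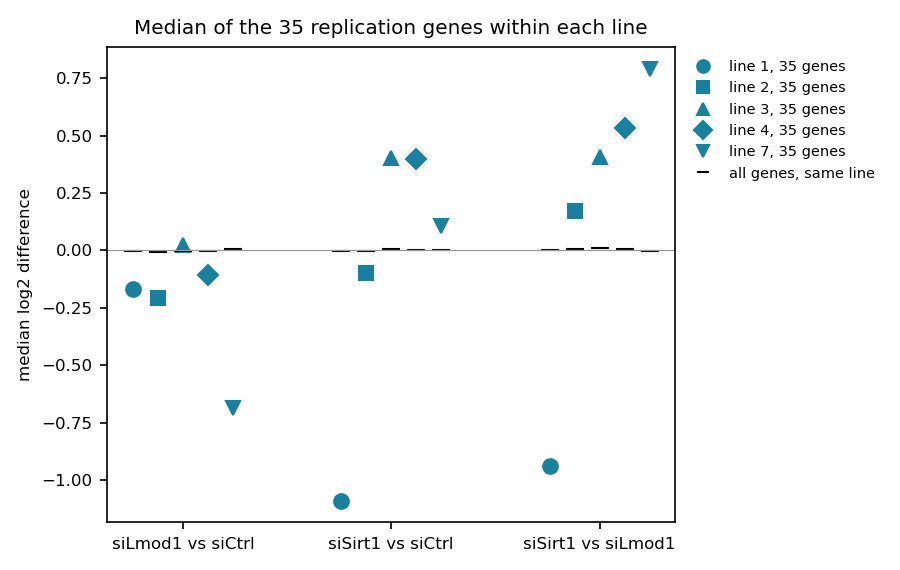
Symbols give the median log2 difference of the 35 genes within each of the 5 lines (y axis) for the 3 comparisons (x axis), and black dashes give the median of all genes in the same line. Line 1 lies at -1.09 for siSirt1 against siCtrl while lines 3 and 4 lie at 0.40, and line 7 is lowest, at -0.69, for siLmod1 against siCtrl.

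The 4 genes called by the blocked DESeq2 fit had the same sign in at least 4 of the 5 lines. Slbp stood at 11.9, 10.4, 9.71, 10 and 12.8 TPM in siCtrl and at 15, 14.6, 13.2, 20.2 and 18.4 TPM in siSirt1. The groups did not overlap in TPM, though in TPM the median of all genes was also higher in siSirt1, by 0.12 to 0.13 on the log2 scale. The log2 fold change from counts was 0.42 (SE 0.11, edgeR blocked adjusted p = 0.056; 0.023 in the blocked DESeq2 fit). Rrm1 stood at 33.8, 54.9, 19.5, 29 and 59.9 TPM in siSirt1, lower than siCtrl in 5 of 5 lines although level within 1 TPM in line 2. Its log2 fold change was -0.57 (SE 0.15, edgeR blocked adjusted p = 0.06; 0.0045 in the blocked DESeq2 fit). E2f2 was lower in 5 of 5 lines in the fit's scaled counts (log2 fold change -0.71, SE 0.20, edgeR blocked adjusted p = 0.078; DESeq2 0.0062), and Rrm2 in 4 of 5 (-0.47, SE 0.14, edgeR blocked adjusted p = 0.087; DESeq2 0.022). Rrm2 was called by edgeR without line 7 (-0.61, edgeR blocked adjusted p = 0.037). Without line 1 the edgeR log2 fold changes were 0.48 for Slbp (edgeR adjusted p = 0.082), -0.44 for Rrm1 (0.13), -0.56 for E2f2 (0.18) and -0.36 for Rrm2 (0.2). DESeq2 was not run without line 1.

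Most helicase and fork genes had wide errors here, and their lines differed in sign. Mcm6 had a log2 fold change of -0.39 (SE 0.23) and Mcm3 of 0.03 (SE 0.33). Without line 1 these were -0.11 and 0.41, and neither passed. Pcna stood at 36.9, 38.3, 42.4, 68.4 and 76.3 TPM in siSirt1, with a log2 fold change of -0.07 (SE 0.20), below every siCtrl library in line 1 and above them in line 7. Ccne1 stood at 9.66, 13.4, 12.1, 19.1 and 26.3 TPM in siSirt1 (log2 fold change -0.35, SE 0.22) and Ccne2 at 4.03, 3.41, 4.08, 5.44 and 11.2 TPM (0.17, SE 0.27). Uhrf1 stood at 4.59, 9.85, 6.17, 14.4 and 25.7 TPM, with a log2 fold change of -0.09 (SE 0.41), or 0.32 (SE 0.30) without line 1. E2f1 stood at 17.7, 18.2, 13.5, 22.9 and 28.6 TPM (-0.18, SE 0.20). These values neither passed nor showed that the groups were alike.

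**Figure D4:**
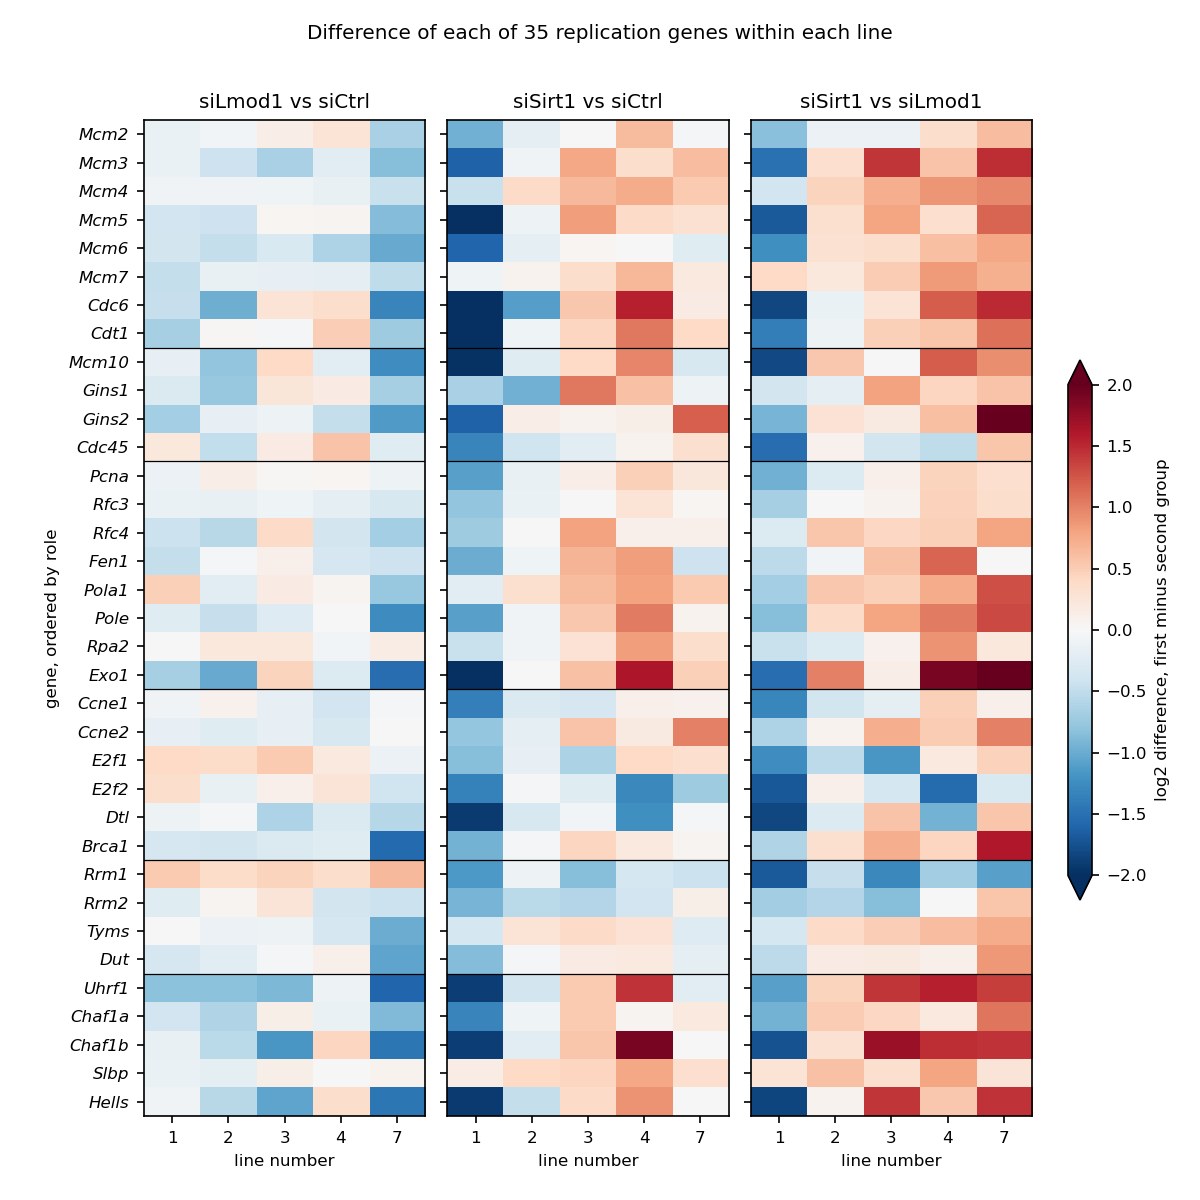
Colours give the log2 difference of each of the 35 genes (y axis, ordered by role, with black lines between roles) within each line (x axis) for the 3 comparisons; red is higher in the first group named, and the scale ends at 2 in either direction. The row of Rrm1 is red in all 5 lines of siLmod1 against siCtrl, and the column of line 1 is blue for 34 of 35 genes in siSirt1 against siCtrl.

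The third comparison set the knockdowns side by side. By group alone, edgeR called 0 of 35 members (1.53% of all genes), with 3 at an unadjusted p under 0.05 (16.5% of all genes), and DESeq2 called 0. In the blocked fit 2 members were higher in siSirt1 than in siLmod1 (7.43% of all genes were) and 1 was lower (8.43% were). The median member was at 0.25 on the log2 scale, 26 of 35 were positive, and the median of all genes was 0.01. Within lines the medians were -0.94, 0.17, 0.41, 0.54 and 0.79 for lines 1, 2, 3, 4 and 7, so line 1 ran against the rest. Without line 1 the median was 0.55 and 4 members were called (6.94% of all genes were), Rrm1 lower and Mcm4, Mcm7 and Uhrf1 higher.

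Rrm1 was lower in siSirt1 in 5 of 5 lines, with a log2 fold change of -1.05 (SE 0.17, edgeR blocked adjusted p = 0.0075), and was called with each line left out, at -1.19 to -0.89. Mcm7 stood at 30.9, 23.4, 21.7, 38.3 and 45.7 TPM in siSirt1, higher than in siLmod1 in 5 of 5 lines. Its log2 fold change was 0.53 (SE 0.11, edgeR blocked adjusted p = 0.018), and the call was lost without line 3 or 7 (edgeR adjusted p up to 0.059). The limit from exons shared with Ap4m1 and Cops6 holds for Mcm7 here too. Slbp stood at 11, 9.72, 10.5, 10.6 and 13.4 TPM in siLmod1, which put all 5 siSirt1 libraries above their own line's partner. Its log2 fold change was 0.44 (SE 0.11, edgeR blocked adjusted p = 0.032), and the call was kept only without line 7 (edgeR adjusted p up to 0.089). Blocked DESeq2 called 5 members here (21.2% of all genes), these 3 and also E2f2, lower, and Mcm4, higher.

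Other genes of replication and G1/S control were read from a list of 99, all tested. In siLmod1 against siCtrl, edgeR called 0 of the 99 by group alone, with 7 at an unadjusted p under 0.05 (8.99% of all genes). In the blocked fit 6 were higher (12.9% of all genes were) and 24 lower (16.5% were), 30 in all (29.5% of all genes), and the median was -0.17. E2f3 (log2 fold change 0.42, SE 0.05, edgeR blocked adjusted p = 0.00034), another activating E2F, and E2f5 (0.83, SE 0.13, edgeR blocked adjusted p = 0.0012), a repressing E2F, rose in 5 of 5 lines, as did Samhd1, which breaks down deoxynucleotides, and Pole3, a small subunit of polymerase epsilon. Tfdp1 (-0.40, SE 0.06) and Tfdp2 (-0.44, SE 0.08), the partners with which E2F factors bind DNA, fell in 5 of 5 lines, as did the mismatch repair gene Msh6 and the pyrimidine enzyme Umps.

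In siSirt1 against siCtrl, edgeR called 0 of these 99 genes by group alone, with 9 at an unadjusted p under 0.05 (9.66% of all genes). With the block 5 were higher (2.72% of all genes were) and 1 lower (4.35% were). Without line 1, 1 was higher and 0 lower, and 2.2% of all genes were called in either direction. Skp2, the ubiquitin ligase subunit that marks p27 for degradation, rose by 0.83 (SE 0.11, edgeR blocked adjusted p = 0.0078), Rpa3 by 0.73, Shmt1 by 0.54 and Myc by 1.11, each in 5 of 5 lines. Cdk2, the kinase partner of cyclin E, fell by 0.88 (SE 0.15, edgeR blocked adjusted p = 0.016), also in 5 of 5 lines. Without line 1, Skp2 was still called (0.76, edgeR adjusted p = 0.029), and the others were not: Rpa3 had a log2 fold change of 0.72 (edgeR adjusted p = 0.052), Shmt1 of 0.53 (0.09), Myc of 1.21 (0.083) and Cdk2 of -0.90 (0.054). Between the knockdowns 7 were higher in siSirt1 (7.43% of all genes were) and 4 lower (8.43% were). Among them were Skp2 (0.95) and Tfdp2 (0.69), higher, and E2f3 (-0.69) and Cdk2 (-0.80), lower. These 4 genes were still called without line 1, where the counts were 8 and 2 and 6.94% of all genes were called in either direction. E2f3 was the 1 gene of the 99 called there by group alone (edgeR adjusted p = 0.039).

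Neighbouring lists were read beside the members. In siLmod1 against siCtrl, edgeR called 0 of 20 mitosis genes by group alone, and 0 had an unadjusted p under 0.05 (8.99% of all genes did). In the blocked fit 14 of the 20 fell (16.5% of all genes did), with a median of -0.58, among them Top2a (-0.96) and Mki67 (-0.88). In siSirt1 against siCtrl 0 of 20 were called (7.07% of all genes were), with 6 at an unadjusted p under 0.05 (25.2% of all genes). The median there was -0.51 and all 20 were negative. Without line 1 the median was -0.23 and 17 were negative. Of 10 CDK inhibitor and D cyclin genes, 2 rose (12.9% of all genes did) and 6 fell (16.5% did) in siLmod1 in the blocked fit. The CDK inhibitors Cdkn1b (0.32) and Cdkn2d (0.43) rose, while the inhibitors Cdkn1a (-0.31), Cdkn1c (-1.54), Cdkn2a (-0.29) and Cdkn2c (-0.26) and the D cyclins Ccnd1 (-1.54) and Ccnd2 (-0.97), which act before cyclin E, fell. Cdkn1a was the 1 gene of the 10 called in siSirt1 (7.07% of all genes were), at -0.76, and at -0.84 without line 1 (edgeR blocked adjusted p = 0.033). By group alone, edgeR called 0 of these 10 genes in either knockdown against siCtrl.

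By group alone, edgeR called 0 of the myoblast, myocyte, smooth muscle and fibroblast markers in either knockdown against siCtrl. In the blocked fit these cell type markers differed between groups as well. Myoblast markers fell for 5 of 8 genes in siLmod1 (16.5% of all genes fell there), among them the satellite cell factor Pax7 (-0.79) and the adhesion molecule Vcam1 (-0.55). In siSirt1 they fell for 2 of 8 genes (4.35% of all genes fell there), Itga7 (-0.88) and Ncam1 (-0.67). Differentiating myocyte markers fell for 3 of 7 genes in siLmod1 and for 2 of 7 in siSirt1. The list summed to 14177 to 41129 CPM in siCtrl, 11683 to 40694 CPM in siLmod1 and 7982 to 34467 CPM in siSirt1. Without line 1, 0 of 7 were called in siSirt1 (2.2% of all genes were called in either direction). Smooth muscle and pericyte markers fell for 5 of 7 genes in siLmod1, at 83 to 275 CPM in siCtrl and 58.9 to 143 CPM in siLmod1. Of the 6 fibroblast markers tested, 2 fell in siLmod1 and 1 rose in siSirt1 (2.72% of all genes rose there). Without line 1, 0 of these 6 were called in siSirt1. The fibroblast list summed to 4.91 to 31.7 CPM in siCtrl, 4.54 to 24.4 CPM in siLmod1 and 9.74 to 52.7 CPM in siSirt1. The share of reads from mitochondrial genes was 2.72, 2.34, 2.45, 2.21 and 1.92% in siCtrl (lines 1, 2, 3, 4 and 7), 3.24, 2.61, 2.5, 3.28 and 2.39% in siLmod1, and 2.89, 2.67, 2.59, 2.17 and 1.93% in siSirt1. It was higher in siLmod1 than in siCtrl in 5 of 5 lines, and 2 of the 13 mitochondrial genes rose in the blocked fit (12.9% of all genes did). The part of these lists and shares in the members' differences was not tested.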

How the data were processed

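RNA-seq counts and TPM of 15 libraries were used. The authors deposited raw read counts per Ensembl gene and TPM values for each pair of groups; the counts and TPM of each library were identical in both tables that hold it (15 of 15). Build mm10 and DESeq2 are named per the submitters' processing notes; the aligner, counter and annotation: not given in the sources used here. Sample titles gave group and number. Counts were filtered with filterByExpr, scaled by TMM and tested over all genes with edgeR 4.0.16 (quasi-likelihood F test, Benjamini-Hochberg adjusted p under 0.05) in R 4.3.3, by group alone and with the line number as a block. Alternatives were DESeq2 1.42.0, limma 3.58.1 on log2(TPM + 1) or log2(TPM + 0.1), other scaling, no filter, all 15 libraries together and 1 library or line left out. The numbers were taken to pair the libraries, and the study's text names 5 primary lines. Deviations of same-numbered libraries correlated at 0.28 to 0.89 (15 pairs) and of others at -0.52 to 0.27 (60 pairs) over 15716 genes. For the siSirt1 library numbered 1 the pairing is uncertain, at 0.28 and 0.30 with its own number and up to 0.27 with another. The edgeR fits of siLmod1 against siCtrl, by group alone and blocked, were also run on simulated counts in which libraries were paired by line. The simulation took the pairing as given, so it cannot test it. DESeq2, limma, the line effect and the siSirt1 comparisons were not simulated. The line effect used all 15 libraries with group as covariate. Values within a line are differences of log2 CPM on the scaled totals. The floor of 3 counts lay at 0.09 to 0.14 CPM and covers counting error only. The members and gene lists were chosen with earlier results of these data known. The genes with values in each library were, by rule, members called in a comparison with the smallest p in each direction plus Mcm2, Mcm5, Pcna, Ccne1, Ccne2, E2f1 and Cdc6; of other replication genes, up to 4 with the smallest p in each direction were named.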

Additional observations from a re-analysis of the deposited data

Results flagged for a closer look

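In 7 of 105 sets of 5 libraries (35 genes in 3 groups) the highest or lowest library stood apart by Dixon's ratio of its gap to the range; chance gives this in about 1 in 20 sets. In siSirt1, the line 7 library was high for Ccne2 (12 CPM, the nearest library at 6.04 CPM), Rfc3 (11.9 CPM, nearest 7.6 CPM) and Pola1 (19.3 CPM, nearest 8.45 CPM). Ccne2 shares 17.4% of its exonic bases with Ints8. Also in siSirt1, the line 4 library was high for Tyms, at 17.7 CPM against 9.81 CPM for the nearest. In siLmod1, the line 4 library was low for Rpa2 (9.05 CPM, nearest 15.4 CPM) and high for Brca1 (18.4 CPM, nearest 5.45 CPM). The siLmod1 library of line 1 was high for Chaf1a, at 9.29 CPM against 6.07 CPM for the nearest, a gene that shares 52.5% of its exonic bases with Ubxn6.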

How the results depend on the processing

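By group alone, 17 genes were called for siLmod1 against siCtrl, 19 for siSirt1 against siCtrl and 229 between the knockdowns. The counts were 4430, 1054 and 2379 with the replicate block, 6, 7 and 90 with no filter, 261, 294 and 922 with DESeq2, 3975, 1940 and 3171 with DESeq2 and the replicate block, 38, 150 and 554 with all 15 libraries, and 1427, 2530 and 4210 with all 15 libraries and the replicate block. For siSirt1 against siCtrl they were 7 with library totals and 2 with limma at either pseudocount. Members called were 8, 0 and 3 with the replicate block, 8, 4 and 5 with blocked DESeq2, and 0, 2 and 5 with all 15 libraries and the block. With the siCtrl libraries left out, the line effect was called for 4591 genes and 8 members. Leaving out 1 library or line gave 3 to 10, 3 to 13 and 54 to 247 genes by group alone and 0 members in each comparison. With the replicate block and line 1, 2, 3, 4 or 7 left out, the genes called were 2833, 3758, 3534, 4264 and 3314 for siLmod1 against siCtrl, 332, 411, 398, 525 and 580 for siSirt1 against siCtrl, and 1042, 1771, 946, 1395 and 1662 between the knockdowns, with 4 to 12, 0 to 1 and 1 to 4 members called. The median member then ranged from -0.47 to -0.18, -0.31 to 0.08 and 0.07 to 0.45 by group alone, and from -0.35 to -0.20, -0.23 to 0.19 and 0.04 to 0.55 with the block. The line effect ranged from 6877 to 9618 genes and 12 to 29 members. Brca1 turned to 0.0519 for siLmod1 against siCtrl without siCtrl replicate 4, by group alone, in a range down to -1.3. The cause of these shifts was not tested, except that fits with a line left out hold fewer samples. Low counts limit Exo1, Chaf1b, Cdc6 and Hells, which had 16 to 23 reads in their lowest library.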
